A study of Mus musculus with 3 samples.

Results

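Re-adherent cardiac myofibroblasts, cells returned from suspension to a plastic plate, were compared with the non-adherent cells in suspension from which they came. A gene was a member of the comparison when a probe for it was well above background, by the flag of the scanner software, on both arrays, which 13563 of 15393 genes seen on at least 1 of the study's 3 arrays were. Genes above background on only 1 array of this pair, the re-adherent (372, called switched on) or the non-adherent (1177, called switched off), were described separately. The study hybridised 1-colour Agilent mouse arrays with RNA from adherent, non-adherent and re-adherent myofibroblasts, 1 array for each state. All cells came from hearts of male C57BL/6J mice in which the left anterior descending coronary artery had been tied off permanently 3 days earlier, and were taken as the cells that attached to plastic overnight and lacked CD45, a surface protein of leukocytes. The labels disagree on age: the treatment text gives 10 weeks at ligation and another field gives 8 weeks. Adherent cells grew on plastic, non-adherent cells had been moved into ultra-low attachment plates and re-adherent cells had been plated again, each state for about a week and in that order, so that state and total time in culture cannot be told apart. Each RNA sample is described as a mixture from several hearts, and per the methods many cells died in suspension. With 1 array a side, no spread between replicates could be computed, no p-value is given, and every statement compares these arrays.

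Myofibroblasts are the contractile, matrix-producing form that fibroblasts take on in injured tissue. Cells that pull on a stiff surface through integrins assemble actin filaments, which frees the cofactors of serum response factor (SRF) to turn on contractile genes and lets YAP and TAZ, the effectors of the Hippo pathway, act with TEAD factors in the nucleus. Fibroblasts deprived of attachment lose that tension, and unanchored cells can die by anoikis.

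Values below are log2 levels, the log2 processed signal minus the log2 75th percentile of the array, so that 0 is the 75th percentile of all non-control spots. A difference is the re-adherent minus the non-adherent log2 level of the same probe, and its technical error combines the errors the software gave the spots on both arrays (median 0.20 over genes). That error holds no biological spread. The words rose and fell are used only for genes over 2-fold different, a log2 difference beyond 1 or -1, as a description. Spots well above background made up 59.9% of non-control spots in suspension and 53.9% after plating. Across genes above background on both, the median difference was 0.12, and it was 0.02 after quantile normalization, -0.07 after scaling to spike-in probes, -0.16 in the authors' own values and -0.25 without scaling, so that small differences below carry a sign that the scaling sets. The labelled cell type was checked against its markers, and all 8 fibroblast markers were above background on every array. Of 12 cardiomyocyte markers, 6 were above background on the adherent, 8 on the non-adherent and 6 on the re-adherent array, and 4 on none. All 11 endothelial, 7 mural and 7 fat cell markers were above background in suspension, so detection alone does not tell cell types apart. Macrophage markers were present on all arrays in spite of the CD45 depletion, and 17 of 20 listed were above background on both arrays of the pair. Their summed level, as multiples of the array's 75th percentile, was 262 on the adherent, 1672 on the non-adherent and 547 on the re-adherent array.

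The difference between re-adherent and non-adherent cells was broad. Of the 13563 genes, 9804 (72.3%) lay within 2-fold, 1939 were over 2-fold higher after plating (14.3%) and 1820 over 2-fold lower (13.4%). The counts of rises and falls in the gene lists below are to be read beside these 14.3% and 13.4%. A difference just past 2-fold can lie within 2-fold under another scaling, so those counts depend on the scaling too. Past 4-fold, 551 genes were higher (4.06%) and 584 lower (4.31%). This near-even split depended on the scaling: it was 457 higher and 748 lower with spike-in scaling, 423 and 824 in the authors' values and 397 and 902 without scaling. Past 16-fold, 102 genes were higher (0.752%) and 55 lower (0.406%). Bright and dim genes both took part: with the genes divided by level into 3 equal groups, 3.21% of the brightest were over 4-fold higher and 2.76% lower, and of the dimmest 5.55% and 5.66%. Where a gene over 4-fold higher had several probes above background on both arrays, every probe moved the same way in 119 of 119 genes, and for genes over 4-fold lower in 105 of 110. Of the 50 brightest genes of the re-adherent array, 14 rose and 0 fell, while of the 50 brightest of the non-adherent array 2 rose and 7 fell. Choosing genes by their level on 1 array of the pair favours genes higher on that array. The contrast between these counts therefore follows in part from the choice.

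**Figure D1:**
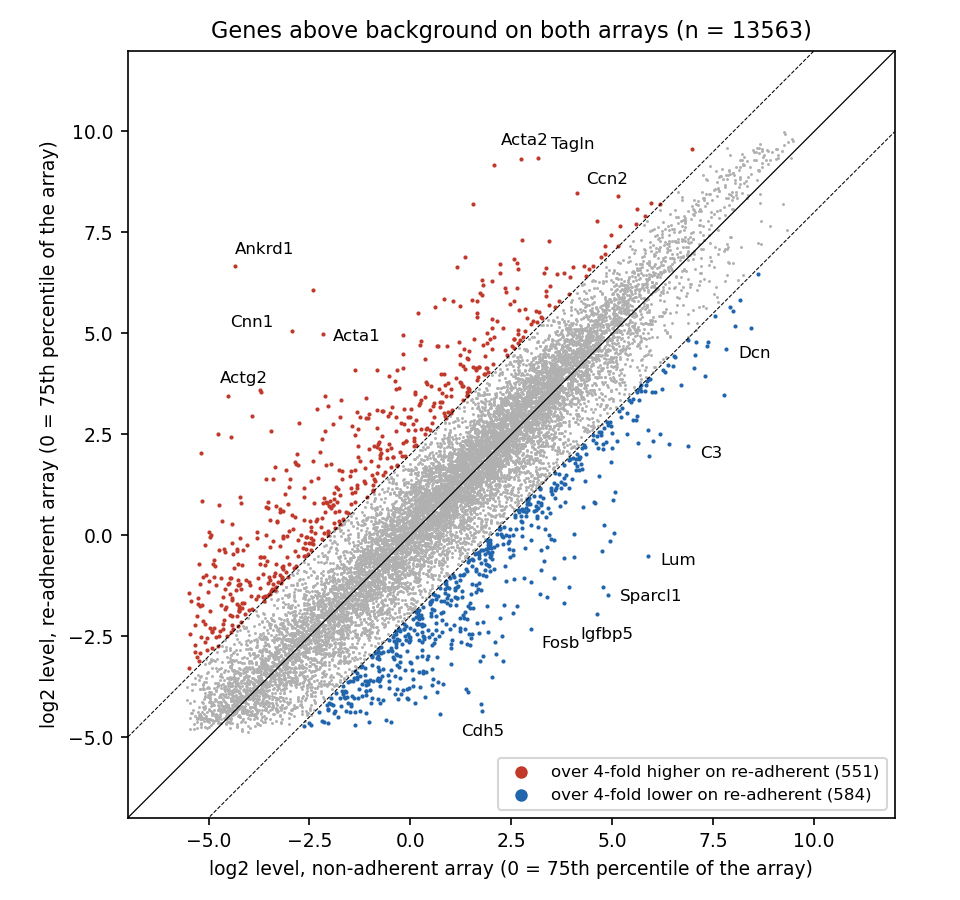
Log2 level of each of 13563 genes on the non-adherent array (x axis) against its log2 level on the re-adherent array (y axis), 0 being the 75th percentile of each array. The solid line marks equal levels and the dashed lines a 4-fold difference; 551 genes (red) lie above the upper line, Ankrd1 farthest from it, and 584 (blue) below the lower one.

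The contractile apparatus held 6 of the 15 largest rises. Of 24 listed actin contractile genes and SRF targets, 21 were above background on both arrays, of which 19 rose, 0 fell and 15 were past 4-fold, with a median difference of 3.24 against 0.12 over all genes. Cnn1, calponin 1, which binds actin in smooth muscle, stood at -2.92 on the non-adherent and 5.06 on the re-adherent array, a difference of 7.99 with a technical error of 0.21. Actg2, the smooth muscle gamma-actin, stood at -4.51 and 3.45, a difference of 7.96, and Acta1, the skeletal alpha-actin, at -2.18 and 4.97, a difference of 7.15; after normexp background correction, which lifts dim spots, the differences of Cnn1, Actg2 and Acta1 were 7.12, 6.17 and 6.39. Acta2, alpha-smooth muscle actin and the usual marker of myofibroblasts, was bright already in suspension at 2.75 and reached 9.32, a difference of 6.57. All of these actin and calponin levels lay far apart between the arrays of the pair, and actin probes may share signal between the closely related actin transcripts. Tagln (transgelin) rose by 6.18, from 3.17 to 9.35, and Myl9, a regulatory light chain of myosin, by 6.64, from 1.56 to 8.20. Tropomyosins followed, with Tpm2 at 1.15 and 6.65 and Tpm1 at 2.29 and 5.13. The SRF gene itself rose by 1.68. Among the LIM-domain members, which link actin to adhesions and the nucleus, Fhl2 rose by 4.55 and Fhl1 by 4.35. The exceptions were Mylk, the myosin light chain kinase, at a difference of 0.33 that changes sign with the scaling, and Synpo2 at -0.78. Actc1, the cardiac actin, was dim in suspension at -3.45 and not above background after plating. On the adherent array, the state before suspension, the same genes were bright: Acta2 at 9.38, Tagln at 9.15, Myl9 at 8.36 and Cnn1 at 5.87.

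SRF binds a sequence known as the CArG box, and promoters were searched for it because these genes moved together. Only exact matches to CCWWWWWWGG, with W for A or T, were counted. Of 21 listed contractile genes with a RefSeq promoter window (250 bases before to 50 after the start, GRCm38.p6), 8 held a CArG box (38.1%), against 1.71% of 10824 genes above background on both arrays with a window and 1.81% of all 27025 genes with one. Among genes over 4-fold higher with a window, 5.58% held one, and among those over 4-fold lower 2.74%. The list was drawn up from known SRF targets, so its share describes that choice too, and a match is no evidence of binding. No exact match was found in the windows of Acta2 and Cnn1. The Acta2 window did hold the near matches ccctatatgg and ccttgtttgg, which the search does not count. The windows of Acta1 (chr8:123894726-123895025, minus strand, match beginning at position -73, counted from the start) and Myl9 (chr2:156775214-156775513, plus strand, match from position -161), 2 genes that rose over 16-fold, are shown with the CArG box in capitals.
Acta1: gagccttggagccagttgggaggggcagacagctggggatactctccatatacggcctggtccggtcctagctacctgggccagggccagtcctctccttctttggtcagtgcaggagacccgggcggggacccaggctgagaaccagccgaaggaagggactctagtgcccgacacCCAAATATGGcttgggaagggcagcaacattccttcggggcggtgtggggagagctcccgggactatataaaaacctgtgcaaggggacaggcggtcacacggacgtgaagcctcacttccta
Myl9: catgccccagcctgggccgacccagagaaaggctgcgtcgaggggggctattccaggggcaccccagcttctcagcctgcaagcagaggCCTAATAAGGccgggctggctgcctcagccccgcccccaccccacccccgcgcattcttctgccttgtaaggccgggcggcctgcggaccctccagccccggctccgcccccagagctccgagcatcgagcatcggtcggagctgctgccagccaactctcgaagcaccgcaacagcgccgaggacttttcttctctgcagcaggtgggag

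Genes of the adhesions that join integrins to actin rose as well. Of 29 focal adhesion and integrin genes above background on both arrays, 17 rose and 3 fell, beside 14.3% and 13.4% of all genes. The median was 1.10, or 0.83 in the authors' values and 0.74 without scaling. The largest rises were in the complex that couples integrin-linked kinase to actin: Parva (alpha-parvin) stood at 0.25 on the non-adherent and 4.82 on the re-adherent array, and Lims2 (PINCH2) at -1.33 and 3.06. The kinase Ilk rose by 1.38, while Lims1 (PINCH1), also of this complex, lay within 2-fold at 0.62. Tln1 (talin 1, 0.52) and Pxn (paxillin, -0.65) were also among the 9 genes of the list within 2-fold. Actn1 (alpha-actinin 1) rose by 3.38, Tns1 (tensin 1) by 2.69, Fermt2 (kindlin 2) by 2.56 and Zyx (zyxin) by 2.46. Integrin subunits themselves moved less and in both directions. Itgb1, the common beta 1 chain, rose by 1.28, Itga5 by 1.16 and Itga11, a collagen-binding chain, by 1.04; the 2 probes for Itga1 differed in sign. The 3 that fell were Itgb3 (-2.19), Itga6 (-1.24) and Itga4 (-1.05). Itgav lay in a region of raised spots on an array, so its difference of 1.27 is uncertain.

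The largest difference among genes above background on both arrays was that of Ankrd1, a cardiac ankyrin repeat protein and a widely used YAP target, which stood at -4.34 in suspension and 6.66 after plating, a difference of 11.00 with a technical error of 0.25, or 2044-fold. Its adherent level was 6.64. The non-adherent value lies near the lowest signals above background, and after normexp correction the difference was 9.37. Of 21 YAP and TEAD target genes above background on both arrays, 11 rose and 2 fell, and the median was 1.48. The matricellular targets Ccn2 (CTGF) and Ccn1 (CYR61) rose by 4.35 and 4.19, to 8.49 and 5.96. Amotl2, an angiomotin that holds YAP back, rose by 4.50, and Lats2, the kinase that phosphorylates YAP, by 1.90. Crim1, a transmembrane protein that binds bone morphogenetic proteins, rose by 4.14, and Axl, a receptor tyrosine kinase, by 2.71. Not every target moved this way. Nt5e (CD73) fell by 1.93, Gadd45a fell by 1.61, and Igfbp3, an IGF-binding protein, was above background in suspension at 1.24 and not after plating, at least 61.2-fold lower. The factors themselves were higher on plates: Tead1 rose by 3.34, from 0.41 to 3.75, Tead3 by 1.78, Yap1 by 1.74, Tead2 by 1.34 and Wwtr1, the gene of TAZ, by 1.19. Vgll3, a TEAD cofactor at the centre of the study, was not above background in suspension and stood at -0.02 after plating and 0.03 on the adherent array, at least 45.2-fold higher than in suspension. Tead4 was likewise above background after plating and not in suspension, at least 7.5-fold higher, and Vgll4 fell by 1.02. Of 23 genes named in the study and above background on both arrays, 8 rose and 5 fell; the RNA-binding proteins among them moved little, with Nono at 5.12 in suspension and 5.63 after plating and Ewsr1 at 2.76 and 2.41.

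TEAD factors recognise CATTCC, searched on both strands, so that GGAATG counts as a match. Of 15 listed YAP and TEAD targets with a window, 7 held it (46.7%), against 14.8% of genes above background on both arrays and 16.6% of all genes with a window. The share was 23.5% among genes over 4-fold higher, and 70 of 438 genes over 4-fold lower with a window held it. This list too was drawn up from known targets, so its share describes that choice. Nor was a high share particular to it: 9 of 21 contractile genes with a window held the motif (42.9%). So did 2 of 6 complement genes (33.3%), 3 of 18 immediate-early genes (16.7%) and 1 of 11 amino acid supply genes (9.09%). The windows of Ankrd1 (chr19:36119795-36120094, minus strand), which held 2 matches from positions -210 and -123, and of Ccn1 (chr3:145649936-145650235, minus strand), with a match from position -103, are shown with the motif in capitals because Ankrd1 had the largest difference and Ccn1 is a classical YAP target. The matches printed here overlapped no other motif searched.
Ankrd1: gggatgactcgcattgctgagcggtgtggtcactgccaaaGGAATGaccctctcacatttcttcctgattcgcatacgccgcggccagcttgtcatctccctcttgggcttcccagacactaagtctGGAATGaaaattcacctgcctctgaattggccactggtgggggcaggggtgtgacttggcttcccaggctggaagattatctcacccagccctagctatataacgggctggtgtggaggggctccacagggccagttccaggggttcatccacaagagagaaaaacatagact
Ccn1: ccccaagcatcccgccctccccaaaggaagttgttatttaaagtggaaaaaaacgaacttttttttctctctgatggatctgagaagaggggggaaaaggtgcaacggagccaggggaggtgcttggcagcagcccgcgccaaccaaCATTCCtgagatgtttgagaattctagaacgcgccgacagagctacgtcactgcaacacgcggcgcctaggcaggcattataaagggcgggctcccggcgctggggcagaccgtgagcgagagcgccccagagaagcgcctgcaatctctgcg

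Beside the contractile genes and Ankrd1, the 15 largest rises held genes of other kinds. Slc1a6, a glutamate transporter best known from Purkinje cells, stood at -2.41 and 6.08, a difference of 8.49, the second largest. Ddah1, which breaks down the nitric oxide synthase inhibitor dimethylarginine, stood at -3.71 and 3.54, Scel (sciellin, of the cornified envelope) at -3.73 and 3.59 and Mogat2, a monoacylglycerol acyltransferase, at -4.76 and 2.51. Asb5 (an ankyrin repeat and SOCS box protein) rose by 6.87, Siglecg, a lectin of B cells, by 6.86, its other probe by 5.53, and Serpind1 (heparin cofactor II) by 7.22. All of these differences were smaller after normexp correction, at 7.76 for Slc1a6, 6.05 for Ddah1, 5.91 for Scel, 5.41 for Mogat2, 5.54 for Asb5, 5.16 for Siglecg and 4.79 for Serpind1. Each of the 15 was above background on the adherent array too, with levels from 0.94 (Serpind1) to 9.38 (Acta2).

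The largest fall was that of Igfbp5, an IGF-binding protein, which stood at 4.61 in suspension and -1.95 after plating, a difference of -6.56, and Lum (lumican), a proteoglycan of collagen fibrils, at 5.89 and -0.52, a difference of -6.41. Sparcl1 (hevin), a matricellular relative of SPARC, fell by 6.38, and the acute-phase genes Hp (haptoglobin) and Serpina3n fell by 6.06 and 5.20. Cdh5 (VE-cadherin) and Rasip1, both known from endothelium, fell by 6.12 and 5.14. Both endothelin receptors were among the 15: Ednrb stood at 2.03 and -3.51 and Ednra at 1.42 and -3.88. Enpp2 (autotaxin, which makes lysophosphatidic acid) fell by 5.93. Mfap2, of elastic microfibrils, fell by 5.49, with another probe at -3.68, and Fbln7 (fibulin 7) fell by 5.42. Krtap11-1, a keratin-associated protein, fell by 5.17, and the AP-1 genes Fosb and Fos fell by 5.30 and 5.13. After normexp correction the genes whose fold moved by over 1.5 times were, with their log2 differences, Igfbp5 (-5.90), Fosb (-4.56), Fbln7 (-4.45), Ednrb (-4.19), Enpp2 (-4.18), Cdh5 (-4.14), Ednra (-4.07), Krtap11-1 (-3.70) and Rasip1 (-3.51). On the adherent array the 15 stood from -3.33 (Krtap11-1) to 2.33 (Lum), in every case below their level in suspension.

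**Figure D2:**
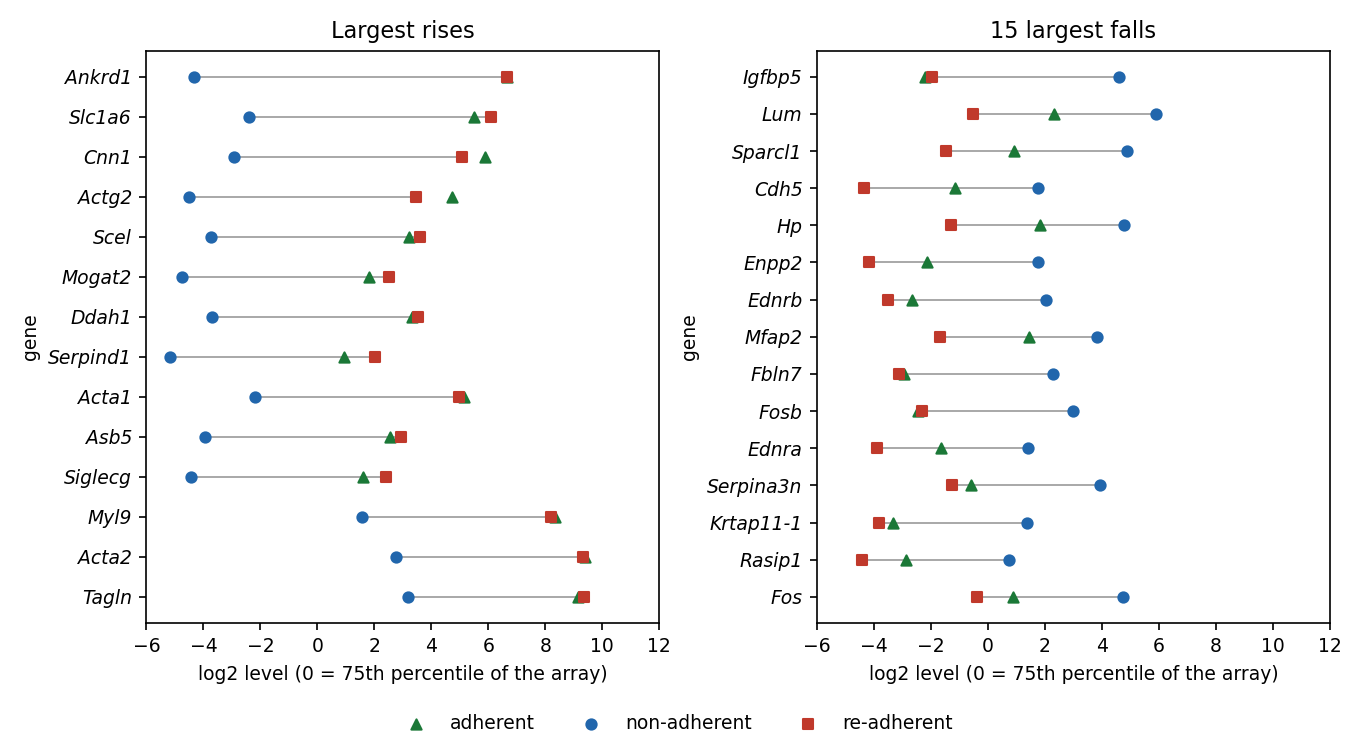
Log2 level (x axis, 0 being the 75th percentile of the array) of genes among the 15 largest rises (1 not drawn) and of the 15 largest falls (y axis), with 1 point per array: adherent (triangles), non-adherent (circles) and re-adherent (squares), the grey line joining the pair compared. Ankrd1 runs from -4.34 to 6.66 and Igfbp5 from 4.61 to -1.95.

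Matrix genes moved in both directions. Several collagen crosslinking and folding enzymes were higher on plates: Lox (lysyl oxidase) stood at -0.53 in suspension and 3.93 after plating, Loxl2 rose by 2.86, Plod2 (lysyl hydroxylase 2) by 2.73, Loxl3 by 2.30 and Serpinh1, the collagen chaperone HSP47, by 2.12. The fibrillar chains differed less. Col1a1 stood at 7.44 and 7.88 and Col1a2 at 8.04 and 8.71, differences that were within 2-fold and whose sign changes with the scaling, and Col3a1 at 7.15 and 6.20. Col11a1 rose by 4.95, Col5a1 rose by 1.19 and Col5a3 fell by 3.87. In all, 9 of 21 genes of this list rose and 1 fell, with a median of 0.85. Basement membrane genes gave 5 rises, among them Col4a1 (1.55), Lamb1 (1.49) and Nid1 (1.46), and 1 fall, Col18a1 (-3.17), of 14. Col15a1 was above background in suspension and not after plating, at least 9.0-fold lower after plating.

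Matricellular genes, which signal rather than build, gave 6 rises and 5 falls of 13. Ccn4 (WISP1) rose by 4.68, Thbs1 (thrombospondin 1) by 3.92, Ccn5 by 3.66 and Tnc (tenascin C) by 2.87, while Comp fell by 4.04, Thbs3 fell by 2.34 and Spp1 (osteopontin) fell by 1.98. Fn1 (fibronectin) rose by 1.15 and Postn (periostin) stood at 3.47 and 3.38. Genes typical of resting fibroblasts leaned the other way, with 10 falls, 8 of them past 4-fold, and 5 rises of 22, and a median of -0.63. Beside Lum, the falls included Pi16 (-4.80), Dpt (dermatopontin, -4.76), Fbln1 (-4.01), Cd34 (-4.01) and Dcn (decorin), which stood at 7.81 and 4.60. The elastic fibre members Fbln2 (2.27), Fbln5 (2.11) and Mfap5 (1.81) rose, Mfap4 fell by 2.52, and Eln (elastin, -0.26) and Fbn1 (fibrillin 1, 0.77) lay within 2-fold. Among proteases and their inhibitors, 6 rose and 7 fell of 19, beside 14.3% and 13.4% of all genes. The metalloproteases Mmp3 (-3.66), Mmp11 (-2.99) and Mmp2 (-2.67) fell, and the inhibitors Timp3 (3.25) and Timp1 (2.10) rose together with Adamts5 (3.80) and Adamts1 (2.43). Mmp10 was switched on, at least 12.3-fold higher. Among 4 hyaluronan genes above background on both arrays, Hyal1, which degrades it, fell by 2.35 and Tnfaip6, which crosslinks it, rose by 1.04, while the synthase Has2 stood at -0.89 and -1.11.

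Fibroblast identity genes gave 12 rises and 3 falls of 20, with a median of 1.12. Tbx18, a transcription factor of the epicardium, rose by 3.37, from -1.76 to 1.61, Thy1 (CD90) by 3.27, Tcf21 by 1.89, Hand2 by 1.82 and Tbx20 by 1.51. Pdgfra, the platelet-derived growth factor receptor that marks fibroblasts, stood at 3.16 and 3.11. The 3 that fell were the surface and secreted genes Fap (fibroblast activation protein, -4.66) and Islr (meflin, -3.96) and the factor Meox1 (-1.55, or -0.96 after normexp correction). TGF-beta pathway genes showed no common direction, with 5 rises and 4 falls of 20, beside 14.3% and 13.4% of all genes. The ligand Tgfb1 fell by 1.51, its receptor Tgfbr2 fell by 1.41 and the feedback inhibitor Smad7 rose by 1.88. Inhba, the activin A subunit, stood at 1.06 in suspension and 5.81 after plating, and its antagonist Fst (follistatin) at -0.87 and 1.34. The IGF axis was mixed too, with 2 rises and 4 falls of 8. Igf1 fell by 1.86, its receptor Igf1r rose by 2.24, Igfbp2 rose by 5.25 and Igfbp4 fell by 2.49. Cell contact genes gave 6 rises and 0 falls of 12, among them Pkp2 (plakophilin 2, 4.39), Cdh2 (N-cadherin, 3.12), Cdh3 (2.13) and Gjc1 (connexin 45, 1.32), whereas Gja1 (connexin 43) stood at -1.99 and -1.39.

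Immediate-early genes, induced within minutes by growth factors or stress, were lower on plates: 12 of 21 fell, 7 of them past 4-fold, and 2 rose, with a median of -1.15. Beside Fosb and Fos, Egr2 stood at 3.25 in suspension and -0.37 after plating, Zfp36, which destabilises cytokine messages, at 0.54 and -2.45, and Nr4a1 at 4.25 and 1.63. Egr1 fell by 2.50 and Atf3 fell by 2.40. The AP-1 family did not move as one. Fosl1 stood at -2.83 and 1.77, a rise of 4.60, and Fosl2 rose by 1.15, while Jun fell by 1.12, Junb fell by 1.30 and Jund stood at 4.57 and 5.23.

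All 15 ribosome biogenesis genes had positive differences, 10 of them past 2-fold, where 14.3% of all genes rose. Their median was 1.05, or 0.78 in the authors' values and 0.69 without scaling. Some of the 10 therefore pass 2-fold only under some scalings. Dkc1 (dyskerin) rose by 1.91, Rrp9 by 1.86 and Ncl (nucleolin) by 1.44. Of 12 amino acid supply genes 10 rose and 0 fell, with a median of 2.09. Phgdh, which starts serine synthesis, stood at 1.65 and 5.40, and the next enzymes Psat1 and Psph rose by 2.29 and 2.07. Asns (asparagine synthetase) rose by 2.57, from 3.36 to 5.93, Cth by 2.55, and Slc7a5, a carrier of large neutral amino acids, by 2.45, but its partner Slc3a2 stood at 5.56 and 5.27. Atf4, the transcription factor that drives many of them, stood at 6.49 and 6.96, a difference whose sign changes with the scaling, and among 20 endoplasmic reticulum chaperone and unfolded protein genes 0 rose and 0 fell.

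The amino acid response element was searched as TGATGNAA on both strands. It was in 4 of 11 listed amino acid supply genes with a window (36.4%), against 2.85% of genes above background on both arrays and 4.51% of all genes with a window; the shares were 3.4% among genes over 4-fold higher and 6.62% among those over 4-fold lower. This list also holds many known targets of that response, so its share describes the choice too. The window of Asns (chr6:7693160-7693459, minus strand), with a match from position -23, is shown as the gene for which this element is best known.
Asns: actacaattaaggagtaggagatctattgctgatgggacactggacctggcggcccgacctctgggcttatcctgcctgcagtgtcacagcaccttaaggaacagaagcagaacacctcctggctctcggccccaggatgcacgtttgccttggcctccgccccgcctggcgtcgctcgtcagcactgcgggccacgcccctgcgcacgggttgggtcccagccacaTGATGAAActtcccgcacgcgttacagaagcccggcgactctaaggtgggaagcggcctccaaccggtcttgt

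In the cell cycle lists, 2 of 23 DNA replication genes rose (Rrm1 by 1.17 and Rrm2 by 1.13) and 6 of 26 mitosis genes, led by Anln (anillin, 2.00), Cdc20 (1.84) and Kif20a (1.69), with 0 falls in either. Beside these and the lists that follow, 14.3% of all genes rose and 13.4% fell. The share of rises was lower than that in the DNA replication list and higher in the mitosis list. Mki67, the proliferation marker, stood at 4.85 in suspension and 4.54 after plating. Of 6 G1 cyclins and kinases the 3 D-type cyclins rose, Ccnd2 by 4.30, from 1.54 to 5.84, Ccnd3 by 1.64 and Ccnd1 by 1.14. Of 15 CDK inhibitor and p53 target genes, 4 rose and 2 fell: Cdkn2a, which encodes p16 and p19ARF, stood at -0.15 and 2.76, and the p53 targets Ccng1, Phlda3 and Cdkn1a (p21) rose by 1.92, 1.79 and 1.29, while Sesn1 fell by 2.41 and Cdkn1c (p57) stood at -0.71 and -1.96. Of 12 BCL2 family and anoikis genes 4 fell and 1 rose. Bmf, which triggers death in detached cells when released from the cytoskeleton, stood at 1.79 in suspension and -2.14 after plating, and Bcl2l11 (BIM) fell by 1.43, with a difference of -0.83 after normexp correction. Sterol synthesis genes gave 6 rises, among them Mvk (1.73), and 0 falls of 21, with a median of 0.65. Respiratory chain genes gave 0 rises and 0 falls of 23, and glycolysis genes 1 and 1 of 18, namely Eno1 (1.05) and Pdk1 (-1.39). Of 12 NRF2 targets, Nqo1 (2.65), Me1 (2.61) and Gsta4 (1.19) rose and Hmox1 (heme oxygenase 1) fell by 1.39.

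Of 17 macrophage markers 15 fell and 1 rose, with a median of -1.58. Mrc1 (CD206) stood at 5.88 on the non-adherent and 2.60 on the re-adherent array, Lyz2 (lysozyme M) at 8.15 and 5.83, Adgre1 (F4/80) at 5.80 and 3.57 and Csf1r at 7.99 and 6.75. Ptprc, the gene of CD45, fell by 1.83. The marker that rose was Cx3cr1, the fractalkine receptor, at 2.03 and 3.97, and Lyve1 was above background only in suspension. Adherent levels of most of these markers were lower than both: Adgre1 stood at 2.65, Lyz2 at 5.55, Csf1r at 5.38 and C1qa, a complement C1 chain made by macrophages, at 3.68, against 7.01 and 5.59 on the pair. Such falls in a mixed culture can come from fewer cells of a type or from less RNA per cell, which cannot be told apart on these arrays.

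Of 11 complement genes, 9 fell, all of them past 4-fold, and 0 rose, with a median of -3.25. C3, the central component, stood at 6.87 in suspension and 2.22 after plating, C4b at 3.56 and -1.05, and C1s1 at 2.54 and -1.92. Cfb (factor B) was above background in suspension and not after plating, at least 18.2-fold lower after plating. The membrane regulators Cd55 and Cd59a lay within 2-fold. C3, C4b, C1s1 and Cfd (-3.71) fell by more than Mrc1 (-3.28), the macrophage marker above background on both arrays that fell most. Of 24 lysosome genes, 13 fell and 0 rose, with a median of -1.02; Psap (prosaposin) fell by 2.57, Ctss (cathepsin S) fell by 2.14 and Npc1 fell by 2.01, while Lamp1 (-0.43) and Cd63 (0.01) lay within 2-fold. Interferon response genes gave 11 falls and 1 rise of 18. Rsad2 (viperin) fell by 3.28, Oasl1 fell by 2.68 and Bst2 (tetherin) fell by 1.64, and Ifit2 rose by 1.80.

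Chemokines and cytokines moved in both directions: of 17, 10 fell and 4 rose. Ccl8 stood at 3.38 in suspension and -1.52 after plating, Il33 at -0.10 and -4.03 and Ccl5 at 0.79 and -2.39, and Tnf and Cxcl1 fell by 2.43 and 2.37. Il1b and Cxcl2 were above background only in suspension, at least 10.2-fold and 9.5-fold lower after plating. Csf1, the growth factor of macrophages, stood at 2.77 and 7.31, a rise of 4.54, and Il6 at -1.01 and 3.01, a rise of 4.02. MHC class II genes fell in 4 of 6 cases, with H2-Ab1 at 1.69 and -0.56 and Cd74 at -0.03 and -2.53, and Ciita, their transcriptional activator, rose by 1.39, with a difference of 0.67 after normexp correction. The part of the macrophage markers in the complement, lysosome, interferon and chemokine differences was not tested.

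Other cell type lists also differed between the pair. Of 8 endothelial markers above background on both arrays 6 fell, with a median of -2.25; Esam fell by 4.32, Egfl7 fell by 2.76 and Vwf fell by 2.58, while Kdr (VEGF receptor 2) stood at 3.51 and 4.25, with probes that disagreed in sign. Tie1, Emcn and Cldn5 were above background on the adherent array and in suspension and not after plating, Cldn5 (claudin 5) at least 56.3-fold lower after plating. The summed endothelial level was 24.5 on the adherent, 40.0 on the non-adherent and 22.9 on the re-adherent array. All 4 fat cell markers above background on both fell, Fabp4 by 3.21 and Cd36 by 2.83 among them, and Adipoq, Plin1 and Cidec were above background only in suspension. Of 3 neutrophil markers above background on both, Camp and S100a8 fell by 4.10 and 2.51 and Mpo differed by 0.40, while S100a9 and Retnlg were above background on no array. In the opposite direction, 5 of 7 mesothelial markers rose and 0 fell, with Krt19 at -1.70 and 1.58, Krt18 at -1.03 and 2.14, and with Krt8 and Upk3b higher by 2.30 and 2.18, whereas Msln (mesothelin) stood at 0.31 and 0.46. Fibroblast markers gave 2 rises and 2 falls of 8, and the summed level of that list was 879 on the non-adherent and 778 on the re-adherent array. The remaining lists were small: 1 of 6 cardiomyocyte markers rose (Tnnt2, 1.15) and 1 fell (Myh6, -1.13, or -0.19 after normexp correction), 1 of 4 mural markers fell (Notch3, -1.41) while Rgs5, Kcnj8 and Abcc9 were above background in suspension and not after plating, 1 of 3 Schwann cell markers fell, and Cd3e, the only lymphocyte marker above background on both arrays, stood at 0.38 and 0.87. How far these marker differences enter those of other genes was not tested.

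**Figure D3:**
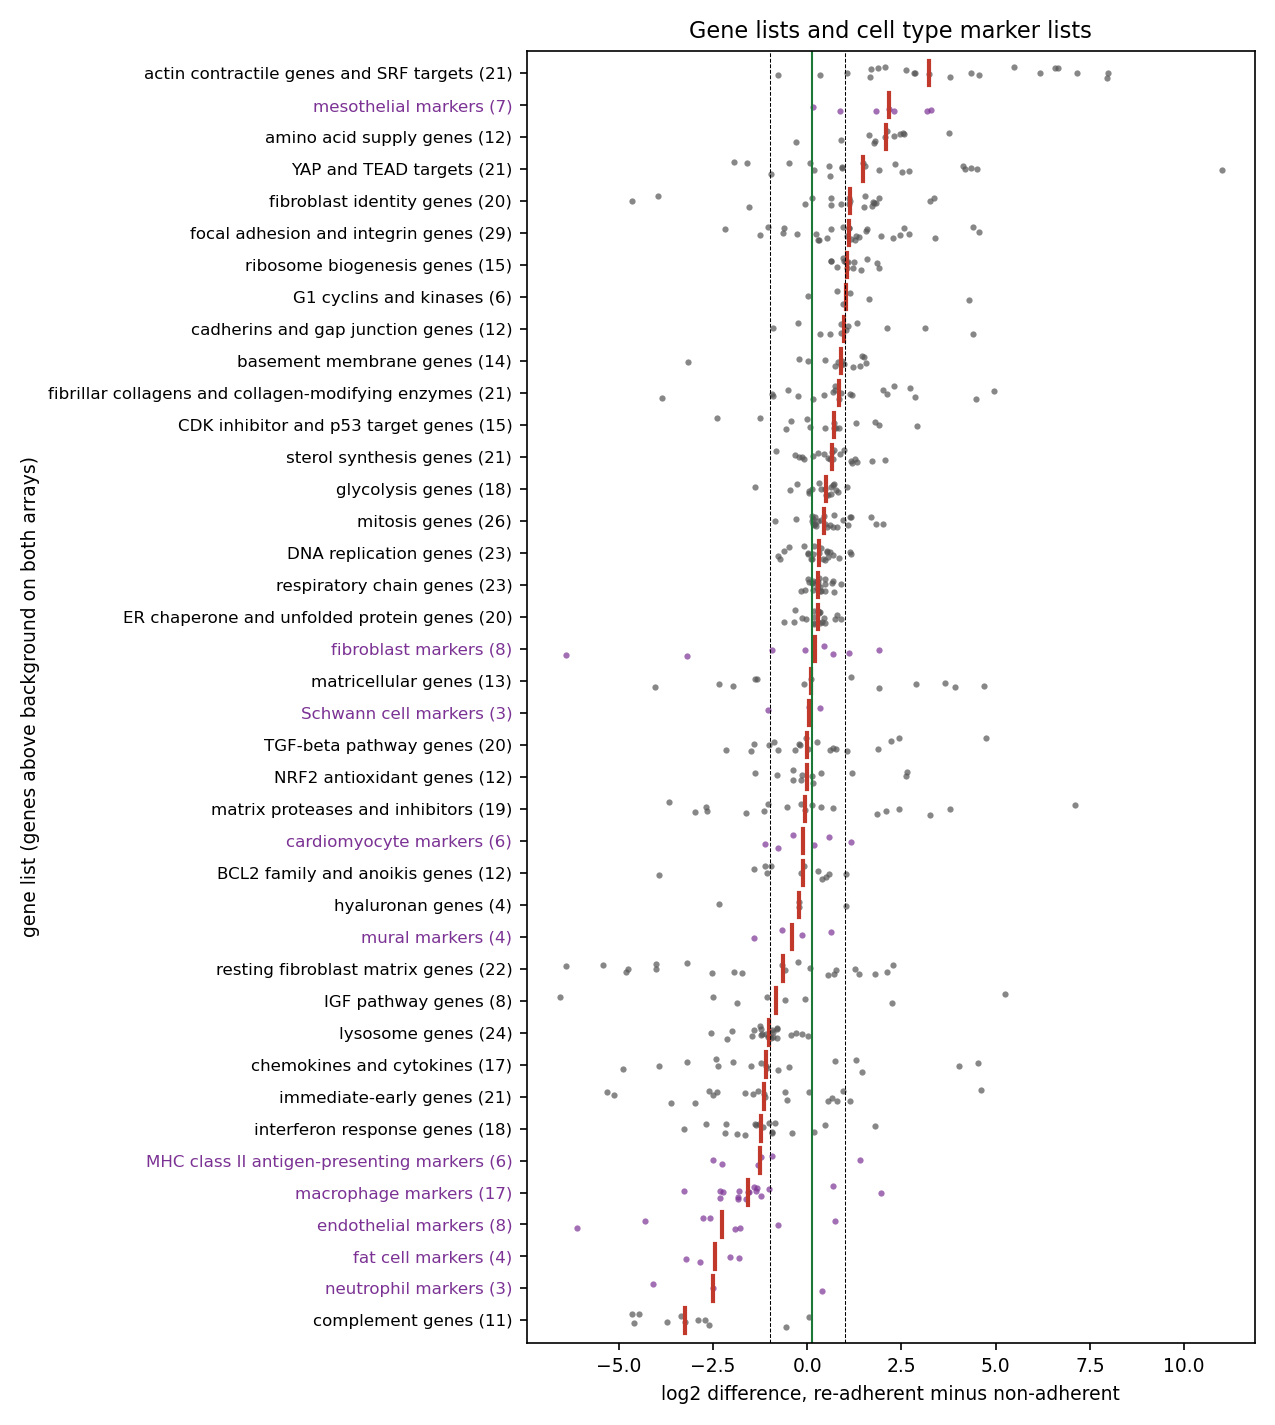
Log2 difference, re-adherent minus non-adherent (x axis), of each member above background on both arrays for the gene lists (black names) and cell type marker lists (purple names) with at least 3 such members (genes named in the study not drawn), ordered by median on the y axis with the number of members in brackets. Points are genes, red bars list medians, dashed lines a 2-fold difference and the green line the median of all genes (0.12); actin contractile genes and SRF targets stand highest at 3.24 and complement genes lowest at -3.25.

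Plating switched on 372 genes, seen above background after it and not in suspension (2.42% of 15393), and switched off 1177 (7.65%). Most of these lay close to the limit of detection, with a median level of -3.61 for genes switched on and -4.54 for genes switched off, while the lowest level above background was -5.63 on the non-adherent and -4.88 on the re-adherent array. The higher limit of the re-adherent array and its lower share of spots above background go in the same direction as the larger number switched off, and their part in it was not tested. A fold here is a bound, the bright level against the higher of the lowest level above background and the dim probe's own level. By that bound 350 genes switched on were over 2-fold, 185 over 4-fold and 38 over 16-fold, and 317, 139 and 32 genes switched off. Of the 38, 32 lay outside patches of raised spots, and 27 of these were above background on the adherent array; of the 32 switched off by over 16-fold, 23 were. Of the genes switched on 212 (57.0%) were above background on the adherent array, and of those switched off 521 (44.3%), against 94.1% of all 15393 genes. The last share rests mostly on the 13475 genes above background on all 3 arrays. It is therefore no like measure for switched genes, most of which lay near the limit of detection.

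Col2a1, the cartilage collagen, was among the brightest genes switched on, at 1.78 after plating and 2.06 on the adherent array, at least 171-fold higher than in suspension. Crct1, of the epidermal differentiation complex, stood at 2.09 after plating, at least 211-fold higher, and Rassf6, a Ras-association protein of the Hippo network, at 1.47, at least 138-fold higher. These levels on the plate were above the 75th percentile of the array. Cibar2 stood at 0.55 after plating with no signal well above background on the adherent array, in a region of the slide where neighbouring spots differed by a median of 0.96. Cobl (cordon-bleu), which nucleates actin filaments, was at least 75.7-fold higher and Cemip, a protein needed to break down hyaluronan, at least 60.7-fold; 1700009N14Rik and Vgll3 were also among the 10 largest bounds. Contractile genes were among those switched on too: Lmod1 (leiomodin 1) was at least 6.8-fold higher and Myh11 (smooth muscle myosin heavy chain) at least 3.1-fold.

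Of the genes switched off, Ahsg (fetuin A) had the largest bound: it stood at 2.40 in suspension, at least 156-fold lower after plating, Robo4, a guidance receptor of endothelium, at 1.51, at least 76.0-fold, and Prg4 (lubricin) at 1.42, at least 79.1-fold. Adamts15, a matrix protease, stood at 1.37 and Igfbp3 at 1.24. All of these were above background on the adherent array, at levels from -4.52 (Adamts15) to -0.74 (Robo4). Plin1 (perilipin 1, of fat droplets), Cilp, a cartilage matrix protein, and Wfdc21 were above background on neither array of plated cells, with levels in suspension of 0.81, 0.54 and 0.39. Gm1987 and Cldn5 made up the 10.

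**Figure D4:**
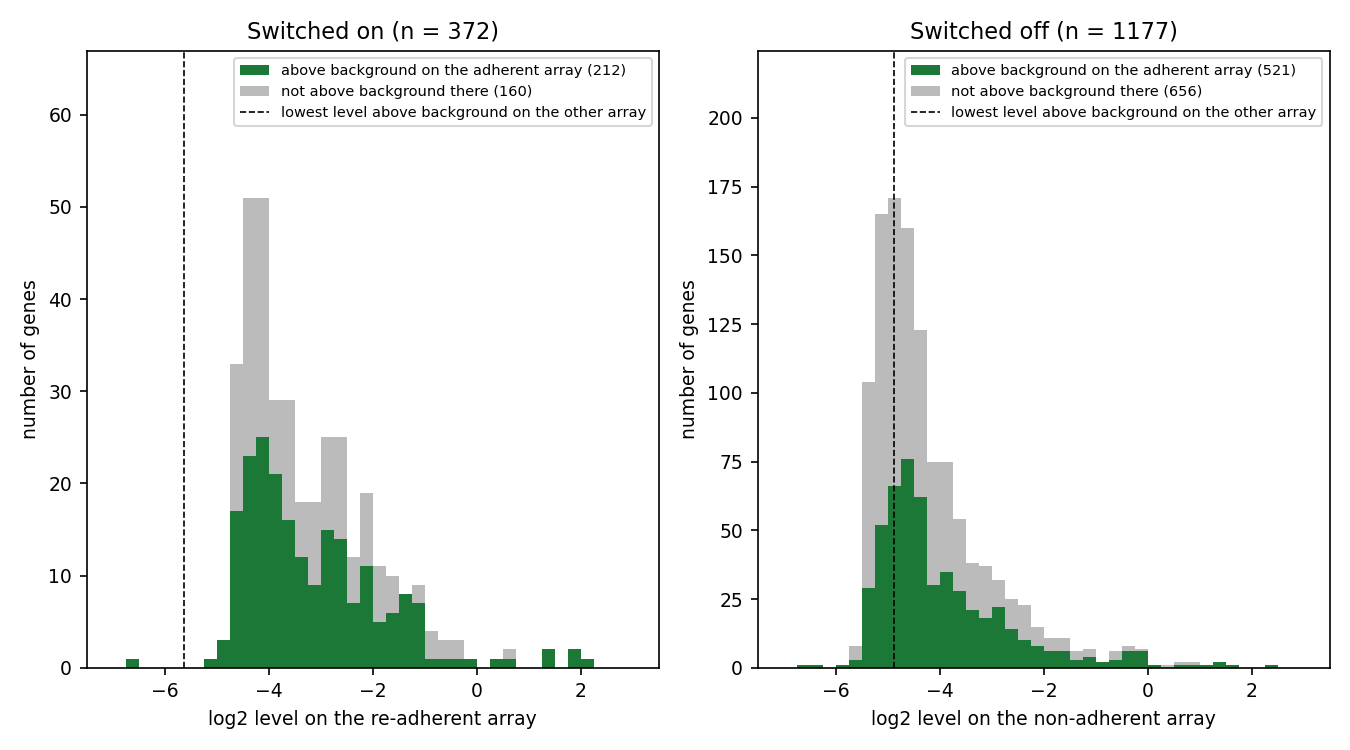
Number of genes (y axis) by log2 level (x axis, 0 being the 75th percentile of the array) on the array where they were above background, for 372 genes switched on (left, re-adherent array) and 1177 switched off (right, non-adherent array). Green marks genes also above background on the adherent array (212 and 521), grey the others, and the dashed line the lowest level above background on the array where the genes were not seen; medians are -3.61 and -4.54.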

How the data were processed

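The authors deposited scanner output of Agilent Feature Extraction 10.10.1.1 for each array, with spot intensity after background subtraction and spatial detrending, and a matrix of intensity values that equals the same signal times 1 constant per array (1.52 for the adherent and non-adherent arrays, 1.62 for the re-adherent). The normalization behind those constants is not given in the sources used here. From the deposited processed signal, control spots (62976 spots less 59305 others) and spots flagged as outliers (180 on the non-adherent and 175 on the re-adherent array) were left out, log2 values were reduced by each array's 75th percentile (697 and 541 on the linear scale), and repeated probes were averaged; 267 repeated probes with at least 5 spots on both arrays gave a median SD between spots of 0.078 on the log2 scale. No non-control spot was saturated. Probes were named through RefSeq accessions of GRCm38.p6 without version, which gave symbols to 27229 of 55665 probes; of a gene's probes well above background on at least 1 array, that with the highest 3-array mean stood for the gene.

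Named genes were the 15 largest rises and 15 largest falls above background on both arrays, the 10 genes switched on and the 10 switched off with the largest bound, all outside patches of raised or lowered spots (median difference of 24 neighbouring spots over 1 log2 unit from that of all spots), and members of 31 gene lists and 11 marker lists. Some genes that these rules name are not reported here. Members and lists were chosen with earlier results of these data known. The counting was tested on simulated data. Alternatives were normexp background correction (limma 3.58.1, R 4.3.3, offset 50), quantile normalization, spike-in scaling, no scaling, the authors' values, other filters and other folds. Normexp used the median spot signal, as the scanner files hold no mean signal. Python 3.11.15, numpy 2.4.6, pandas 2.3.3 and matplotlib 3.10.9 were used. With 1 array per state, the number of arrays sets the precision.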

Additional observations from a re-analysis of the deposited data

Results flagged for a closer look

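Of the spike-in control probes that the comparison does not use, 2 gave signal well above background at every one of their 28 spots on both arrays of the pair. ERCC-00148_99 had a median processed signal of 118.7 on the re-adherent and 95.82 on the non-adherent array. For ERCC-00170_100 the values were 75.91 and 70.4. Their source was not tested.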

How the results depend on the processing

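The main counts were 551 genes over 4-fold higher, 584 lower, 372 switched on and 1177 switched off. With normexp background correction 387 genes were over 4-fold lower, and without scaling 902. Counting genes above background on at least 1 of the pair gave 839 higher and 932 lower; 2-fold in place of 4-fold gave 1939 and 1820, and 16-fold gave 102 and 55. With the looser flag of significance above background 623 genes were switched on and 1316 off. The other alternatives left these counts within 1.5 times, from 386 to 548 for higher, 563 to 824 for lower, 355 to 376 for switched on and 1177 to 1181 for switched off. Of 607 named genes above background on both arrays, 59 moved by over 1.5 times under normexp and 46 under quantile normalization, and under the scalings tried no sign turned among those over 2-fold different. Of 42 list medians, 1 moved under normexp and 1 when dim signals were raised to the lowest level above background. The cause of these changes was not tested. No paired analysis was possible because only 1 array was made per state, and no replicate could be left out for the same reason. Dim genes are limited by signal over background: fold changes of genes near the limit shrink under normexp, as for Ankrd1.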

Other observations

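Among 10520 probes without a matched gene symbol that were above background on both arrays, 224 were over 4-fold higher and 188 over 4-fold lower on the re-adherent array, with differences from -7.20 to 6.20; 17 were over 16-fold higher and 5 lower. Of 260 noncoding RefSeq transcripts above background on both arrays, 43 rose (16.5%) and 27 fell (10.4%), against 14.3% and 13.4% of all genes. The nuclear transcripts Malat1 and Neat1, picked out here after their values were seen, differed by -2.73 and -2.46 between the pair. Neat1 is also among the listed genes named in the study. Malat1 stood at 3.41 in suspension, 0.69 after plating and 2.64 on the adherent array. Ube2d-ps, a ubiquitin-conjugating enzyme pseudogene, stood at -3.57 in suspension and 0.71 after plating, and -3.18 on the adherent array; its probe may share signal with related genes and lay in a patch of raised spots, where neighbouring spots differed by a median of 2.93. 3300005D01Rik stood at 0.24 and 4.71, with 3.53 on the adherent array.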
